A study of Mus musculus with 12 samples.

Results

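Primary cultures of the mouse embryonic gut that were treated with the thiopurine 6-mercaptopurine (6-MP) were compared with untreated cultures, 3 microarrays against 3. These 6 arrays were chosen by the treatment in their sample labels, out of 12 arrays in the study. For the embryos the sample labels give embryonic day 14.5, while the study's methods give a range that begins earlier and ends at that day. Their gut was minced and digested with trypsin, and the cultures made from it are called enteric nervous system (ENS) cultures. They held mixed cells of the gut wall and not isolated neurons. All groups came from a mouse line that carries floxed Sox10 alleles (Sox10flox), a modification that the study describes as not relevant here, and embryos of both sexes were mixed. All cultures were first grown with fetal calf serum and then in serum-free medium with N2 supplement. The 6-MP group received 50 µM 6-MP for 16 h and the control group nothing. The other 6 arrays were of cultures that had lipopolysaccharide (LPS), 10 ng/ml, during 6 h, 3 with LPS alone and 3 with the same 6-MP treatment and LPS. They share no array with the 6-MP and control groups and are used below as a second look at the same drug. The labels do not say whether cultures with 6-MP alone were kept for the further 6 h. The methods describe the arrays of a group as independent experiments.

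6-MP is a prodrug that is used against inflammatory bowel disease and leukaemia. The purine salvage enzyme encoded by Hprt converts it to a nucleotide, and its products include thioguanine nucleotides, which are built into DNA, and methylated nucleotides made by Tpmt, which inhibit the de novo synthesis of purines. Xanthine dehydrogenase, encoded by Xdh, breaks 6-MP down. In T cells thio-GTP binds the small GTPase Rac1 and blocks its activation by Vav proteins, and 6-MP is also known to activate nuclear receptors of the NR4A family. The ENS is the network of neurons and glia in the gut wall, and in culture it lies among smooth muscle cells, fibroblasts, epithelial cells and resident macrophages.

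Each transcript cluster of the Clariom S array stands for a gene and carries 1 log2 value per array, as the authors deposited it. The lowest value was 2.61 and the highest 18.8, the medians of the arrays lay between 7.41 and 7.53, and 22206 clusters were tested. A log2 value of 5.78 is used here to call a gene dim, because 90% of 1452 receptor gene clusters (taste, olfactory and vomeronasal) lay below it, and 15100 clusters had a mean above it. In the control arrays genes of several cell types were far above that level. The neuronal gene Elavl4 was at 11.04 ± 0.56 (SD, n = 3), the receptor tyrosine kinase gene Ret 9.42, the smooth muscle actin gene Acta2 18.05, the collagen gene Col1a1 15.68, the epithelial gene Epcam 14.87, the pancreatic carboxypeptidase gene Cpa1 15.35 and C1qa, a complement gene of macrophages, 11.68. Of the glial genes, Fabp7 (10.65) and Gfap (6.45) were above the dim level, while Sox10 (5.43) and S100b (3.72), which also define enteric glia, were below it. The mast cell gene Cpa3 (5.17) and the T cell gene Cd3e (4.66) were dim too. In a bulk sample, fewer cells of a type and less RNA per cell cannot be told apart.

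One array of each group stood apart from the rest. On the second principal component, which held 25% of the variance, control 2 scored 33.2 and 6-MP 1 scored 45.7, and the corresponding arrays with LPS were LPS 2 and LPS + 6-MP 1. In both control 2 and 6-MP 1 the mean over 30 interferon-stimulated genes was high within its group, at 9.04 against 7.90 and 7.39 in control 1 and 3, and at 9.74 against 7.73 and 7.20 in 6-MP 2 and 3. The mean over 12 smooth muscle genes was low in the same arrays, at 11.53 against 12.90 and 12.29 in the controls and at 10.91 against 13.01 and 12.19 with 6-MP. Epithelial, neuronal and glycolytic genes were higher and cell division genes lower in both arrays than in the others of their groups. Control and 6-MP each held 1 such array, so the difference was present within both groups. Without 6-MP 1 the median changes, 6-MP minus control, were -0.69 for interferon-stimulated, -0.42 for glycolytic and 0.29 for smooth muscle genes, against 0.10, -0.08 and -0.24 with all 6 arrays. Of 42 gene lists described here, 30 had a median that took both signs among the fits without 1 of the 6 arrays, so a list's median is given as a description.

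**Figure D1:**
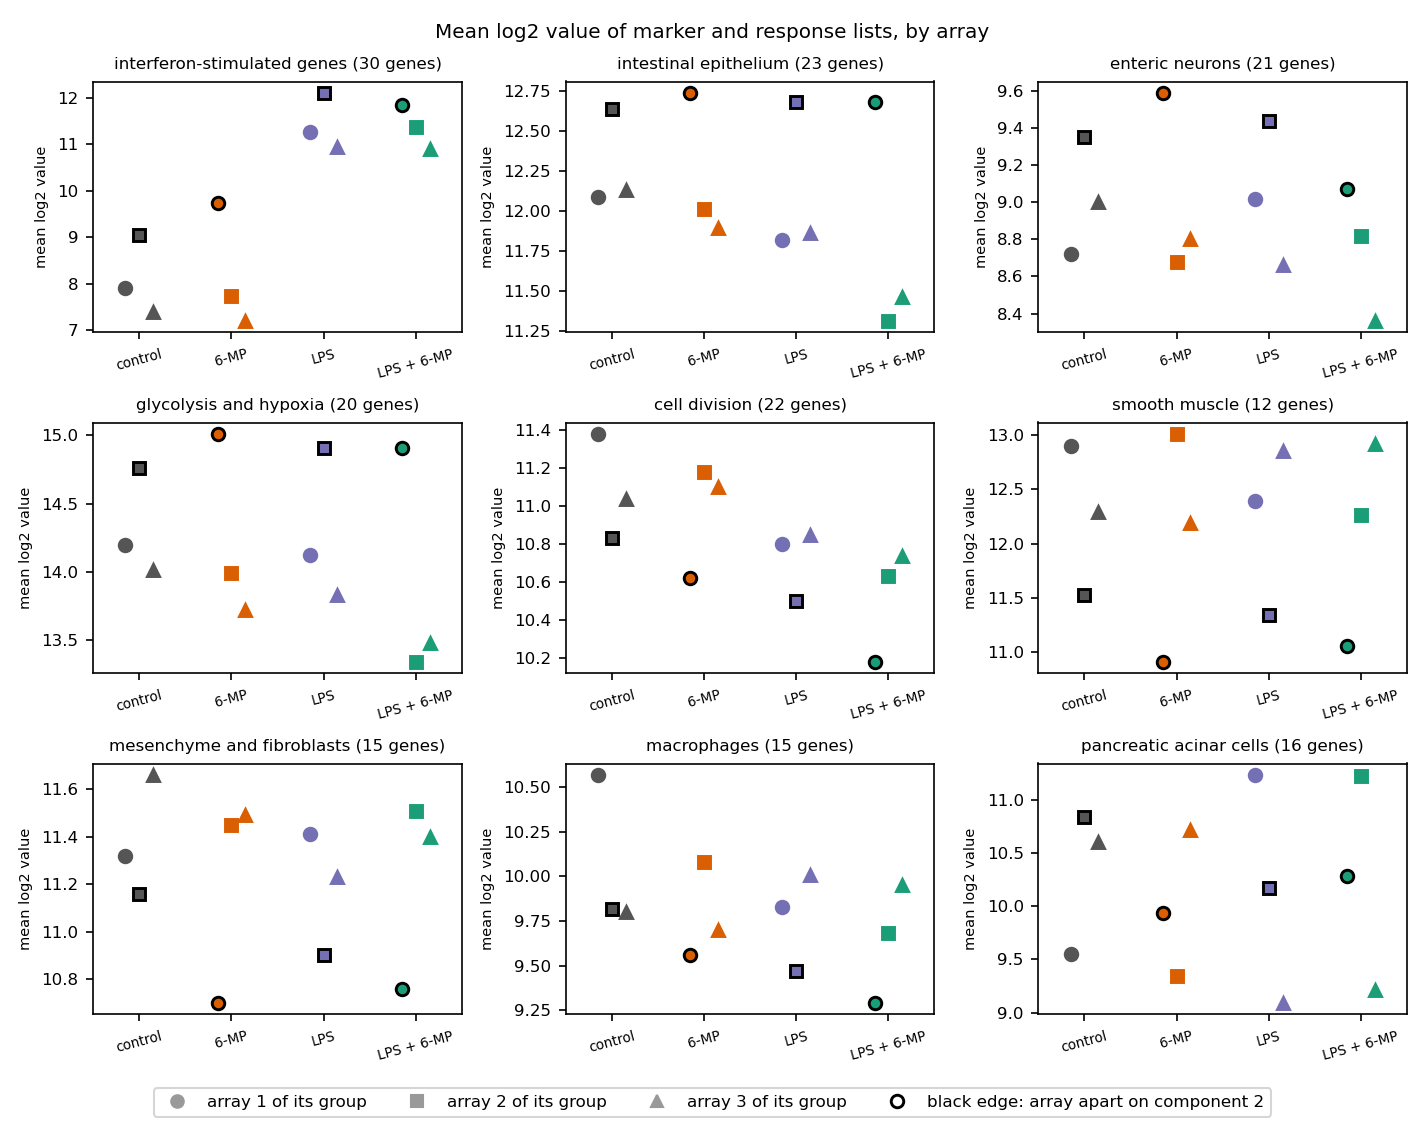
Mean log2 value (vertical axis) over the genes of 9 lists, 1 panel per list and 1 point per array, for the control, 6-MP, LPS and LPS + 6-MP groups. Marker shapes give the array number and black edges the arrays that stood apart, which in the interferon-stimulated genes were at 9.04 (control 2) and 9.74 (6-MP 1), above the other arrays of their groups.

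Few genes were called after 6-MP, and none of them changed by more than 2.92-fold. At a fold of 2 or more together with an unadjusted p below 0.05, the threshold in the methods, 11 clusters were higher (0.0495% of all tested) and 3 lower (0.0135%) than in the untreated cultures. "Rose" and "fell" are used below for these 14 clusters, and for others past the p limit the change is given. At the unadjusted p alone, 271 clusters were higher (1.22%) and 201 lower (0.905%), or 472 in all (2.13%), a smaller share than a p limit of 0.05 passes where no gene differs. After Benjamini-Hochberg adjustment over all clusters 0 passed with limma. With the test that the paper's general statistics give for comparing 2 groups, 0 passed too, and 578 had an unadjusted p under 0.05. The paper's array section does not name that test. The groups did not overlap, in either direction, in 1313 clusters (5.91%). The median change of all clusters was 0.006 on the log2 scale, and 96.8% of them lay within 0.5 of 0. The bounds of a 95% interval lay 0.51 from the change in the median over clusters. The exact two-sided permutation p of 3 arrays against 3 cannot go below 0.1. The p limit is therefore limma's, and errors and intervals come from its fit. Arrays are not paired in it, so variation between experiments stays in the errors. In this fit the adjusted limma p was 1 for every gene named below, without LPS, with LPS and for the difference between them. Of the 472 clusters, 49.4% were dim in both groups, against 30.9% of all clusters. Without the 4 arrays that stood apart, 33 clusters were higher and 12 lower, and 9 of the 14 were among them. Tnfrsf22 (1.13, short of the p limit), Plac1, Tgtp2, Tas2r106 and Rnase1 were not. Leaving out 1 array at a time gave 17 to 25 higher and 7 to 20 lower clusters. The paper's general test for 2 groups called 5 clusters higher and 0 lower, without Tas2r106, Vmn1r61, Tnfrsf22, Tnfrsf23, Plac1, Tgtp2, Rnase1, Gsdmc2 and Gsdmc3. With dim values raised to 5.78, an alternative chosen after seeing the data, 6 were higher and 0 lower, and Olfr995, Tas2r106, Vmn1r61, Plac1, Tgtp2, Rnase1, Gsdmc2 and Gsdmc3 were not called.

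**Figure D2:**
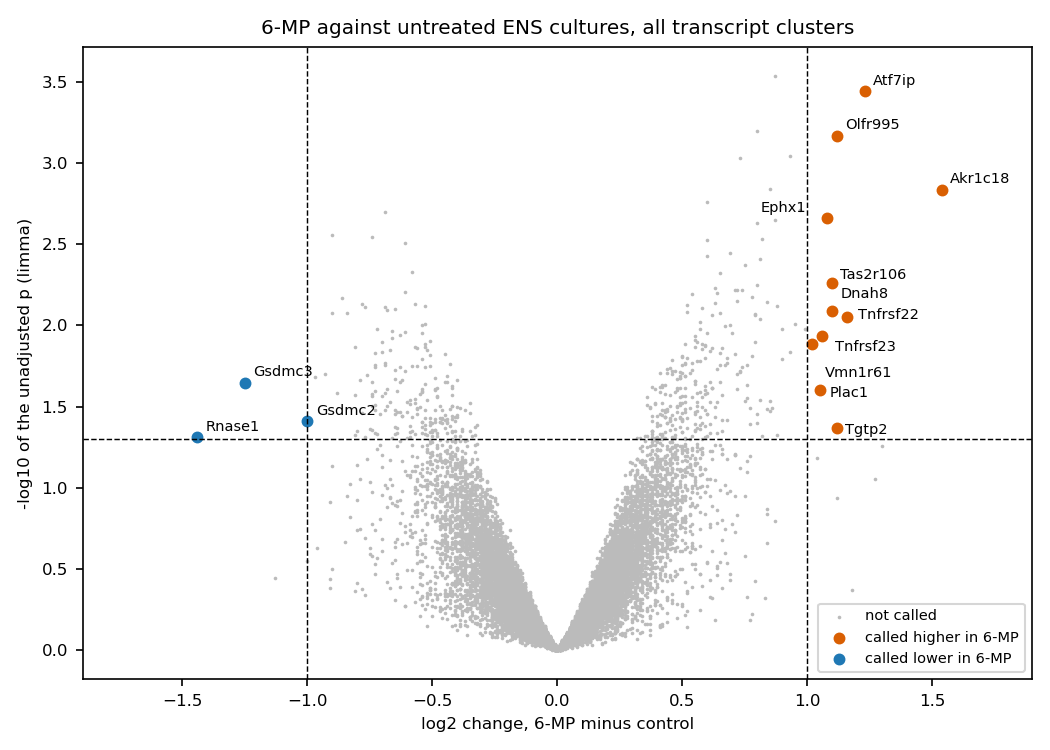
Log2 change of every transcript cluster (6-MP minus control, horizontal axis) against minus log10 of its unadjusted limma p (vertical axis), with dashed lines at the limits on fold and p. The 11 clusters called higher and 3 called lower are coloured and named, and 96.8% of all clusters lie within 0.5 of 0.

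Among enzymes of drug and steroid metabolism, Akr1c18 and Ephx1 rose. Akr1c18 encodes an aldo-keto reductase that inactivates progesterone, and Ephx1 encodes the microsomal epoxide hydrolase, which adds water to reactive epoxides. The promoters of both are printed with that of Tnfrsf23, a receptor gene described after them, because these genes rose and have a RefSeq promoter, and because 3 motifs of transcription factors of the stress response could be searched in them. Each window runs from 250 bases before to 50 after the gene's start (RefSeq, GRCm38.p6, all on the minus strand), 5′ to 3′, and capitals mark a match to GCGTG, the core of the xenobiotic response element bound by the aryl hydrocarbon receptor.
Akr1c18, chr13:4150597-4150896: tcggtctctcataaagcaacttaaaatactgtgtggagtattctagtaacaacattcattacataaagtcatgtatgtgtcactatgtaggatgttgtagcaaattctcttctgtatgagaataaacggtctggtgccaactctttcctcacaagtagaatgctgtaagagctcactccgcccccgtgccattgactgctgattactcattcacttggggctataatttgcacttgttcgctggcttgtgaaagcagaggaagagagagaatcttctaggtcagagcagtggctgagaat
Ephx1, chr1:181017520-181017819: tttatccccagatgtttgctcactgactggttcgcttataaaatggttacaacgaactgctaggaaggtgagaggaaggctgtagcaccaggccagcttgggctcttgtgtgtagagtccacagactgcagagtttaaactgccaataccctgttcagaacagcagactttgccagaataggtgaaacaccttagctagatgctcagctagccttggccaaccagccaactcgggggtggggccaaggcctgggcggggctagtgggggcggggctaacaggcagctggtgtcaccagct
Tnfrsf23, chr7:143685826-143686125: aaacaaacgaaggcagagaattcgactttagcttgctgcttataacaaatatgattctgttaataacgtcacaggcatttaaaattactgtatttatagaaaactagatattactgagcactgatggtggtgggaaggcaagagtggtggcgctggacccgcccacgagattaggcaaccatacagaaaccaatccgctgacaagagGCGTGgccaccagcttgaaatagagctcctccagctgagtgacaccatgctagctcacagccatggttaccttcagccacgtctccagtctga
On either strand, TGACNNNGC, the core of the antioxidant response element, had no match in these 3 windows, against a match in 12.4% of 32851 mouse promoters of the same length. A pair of CATG cores of a p53 site with 6 bases between them had none either, against 0.712% of promoters. GCGTG had 1 match, at position 208 of the Tnfrsf23 window, against a match in 32.4% of promoters. Of the 14 called clusters, 11 had a promoter in the table. Outside the printed windows, GCGTG had 2 matches in the window of Atf7ip and 1 each in those of Dnah8 and Tas2r106.

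Akr1c18 had the largest change of the 14 clusters. Its log2 value was 6.79, 6.56 and 6.03 in control 1, 2 and 3, and 8.43, 7.99 and 7.60 in 6-MP 1, 2 and 3. All 3 treated arrays lay above all 3 untreated ones. The difference was 1.54 (SE 0.38, 95% interval 0.72 to 2.37), or 2.92-fold. It kept its call without each single array, with changes of 1.33 to 1.75. Ephx1 read 8.97, 8.66 and 9.18 without and 9.79, 10.49 and 9.75 with 6-MP. The groups were again separate, with a change of 1.08 (SE 0.28), or 2.11-fold. The Ephx1 change was 0.84 without 6-MP 2 and 0.94 without control 2, under the limit on the fold. Of 25 measured targets of NRF2, the factor that induces detoxifying enzymes, Akr1c18 and Ephx1 were the only ones past the p limit, and the median change of the list was -0.08. The best known of these targets, the heme oxygenase gene Hmox1 and the quinone reductase gene Nqo1, had changes of -0.23 (95% interval -1.03 to 0.56) and -0.06 (-0.6 to 0.47). Akr1c13, a close relative of Akr1c18, differed by 0.03. Of 15 cytochrome P450 and related genes 0 were higher and 1 lower at the p limit, and that gene, Cyp2c39, was dim in both groups and missed the limit without 6-MP 2, 6-MP 3 or control 2, at -0.89 to -0.77 (median of the list -0.12). Cyp1a1, the classical target of the aryl hydrocarbon receptor, was dim in all 6 arrays with a change of 0.29, and Cyp1b1 differed by -0.12.

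A pair of neighbouring receptor genes on chromosome 7, Tnfrsf22 and Tnfrsf23, also rose. In the mouse both encode decoy receptors that bind the death ligand TRAIL without passing on a death signal. Tnfrsf22 read 9.16, 9.02 and 9.07 in the controls and 10.25, 11.04 and 9.44 with 6-MP. The controls lay within 0.14 of each other and every treated array was above them, 6-MP 3 by the least. The change was 1.16 (SE 0.37), or 2.23-fold, and it was 0.76 without 6-MP 2, under the limit on the fold. Tnfrsf23 read 11.76, 11.93 and 10.78 in the controls and 12.60, 13.12 and 11.91 with 6-MP. The lowest treated array, 6-MP 3, lay just under control 2, so the groups overlapped. The change was 1.06 (SE 0.36), or 2.08-fold, and it was 0.77 without 6-MP 2 and 0.70 without control 3. The sequences of these genes are closely related, and signal shared between their probes cannot be told apart here. Tnfrsf26, the next gene in the same row, read 7.94, 7.40 and 7.20 without and 7.82, 7.81 and 7.04 with 6-MP, a change of 0.05 (SE 0.30). Of 9 measured genes of decoy and death receptors, a list that also holds the ligand gene of TRAIL, 2 were higher at the p limit, these decoys, and 0 lower, with a median change of 0.17. The ligand gene Tnfsf10 was near the dim level, and its change of 0.75 (SE 0.44) did not pass. Tnfrsf10b, the death receptor for TRAIL in the mouse, differed by 0.41 (SE 0.42).

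Genes of DNA damage signalling did not pass. None of 28 measured targets of p53 was past the p limit, with a median change of 0.11 and 20 of them above 0, where 51.4% of all clusters were above 0. The cell cycle inhibitor gene Cdkn1a differed by 0.08 (95% interval -0.53 to 0.69) and the p53 ubiquitin ligase gene Mdm2 by 0.24 (-0.34 to 0.83). The p53 target Eda2r, which encodes a receptor for ectodysplasin A2, read 10.02, 8.45 and 8.22 in the controls and 9.81, 11.15 and 9.53 with 6-MP. Control 1 was above 2 of the 3 treated arrays, and the change of 1.27 (SE 0.68) did not pass in the unpaired fit. The highest treated array was 6-MP 2. Over all clusters its deviations from the group mean correlated with those of control 1 at 0.42. Whether these arrays came from the same experiment was not tested. Eda2r was called without control 1, in a fit to only the 6 arrays and with 1 or 2 residual components as covariates. The fit with 2 components was chosen after seeing the data. None of 12 mismatch repair genes, which recognise thioguanine in DNA, passed either (median -0.03).

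Atf7ip rose and Trim24 was higher at the p limit. Atf7ip encodes a partner of the histone methyltransferase SETDB1, which silences genes. It read 9.51, 9.0 and 9.94 in the controls and 10.33, 10.95 and 10.85 with 6-MP. The groups were separate, and the change was 1.23 (SE 0.25), or 2.34-fold. Without control 2 the change was 0.98, just under the limit on the fold. Trim24, which encodes a transcriptional cofactor and ubiquitin ligase, read 12.69, 12.67 and 12.67 in the controls and 13.33, 13.18 and 13.32 with 6-MP. Its arrays were very close within each group, and the change of 0.60 (SE 0.15), or 1.51-fold, was past the p limit but not the limit on the fold.

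The linker histone genes H1f1 and H1f3 were lower at the p limit. The products of these genes bind the DNA between nucleosomes. H1f1 read 11.81, 11.79 and 11.97 in the controls and 10.90, 11.17 and 11.52 with 6-MP. All treated arrays were below all controls, and the change was -0.66 (SE 0.22). H1f3 differed by -0.44 (SE 0.19). Of 12 measured histone genes these 2 were lower at the p limit and 0 were higher, 11 of the 12 had a change below 0, and the median was -0.21. Both calls at the p limit rested on 6-MP 1, without which the changes were -0.51 for H1f1 and -0.35 for H1f3 and neither passed. That for H1f3 was also lost without control 1 (-0.42) and without control 2 (-0.37), and with centred arrays (-0.43). The mean of the 12 genes was 12.33, 12.47 and 12.17 in the controls and 12.09, 12.16 and 12.09 with 6-MP, so the groups were only just separate. Such a separation was not particular to this list. The mean of the Rac and Vav genes, for example, was 9.58, 9.44 and 9.58 without and 9.21, 9.21 and 9.36 with 6-MP.

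In the machinery of DNA replication, Cdc6, which licenses replication origins, read 8.35, 8.14 and 8.5 in the controls and 6.93, 7.85 and 7.78 with 6-MP. The 6-MP 1 array was the lowest, and the change of -0.81 (SE 0.28) was -0.51 without it and no longer past the p limit. Rfc4, a subunit of the clamp loader, differed in the other direction by 0.50 (SE 0.21), and missed the p limit without 6-MP 2 (0.46), 6-MP 3 (0.45), control 2 (0.42) or control 3 (0.43). Of 23 replication genes 1 was higher and 1 lower at the p limit, 20 had a change below 0, and the median was -0.12. Of 22 cell division genes 0 passed, 20 were below 0 and the median was -0.14 (0.05 without 6-MP 1, as it was 0.07 for the replication genes), and the proliferation marker Mki67 differed by -0.10 (95% interval -0.61 to 0.41). The mean over the cell division genes was 11.38, 10.83 and 11.04 in the controls and 10.62, 11.18 and 11.10 with 6-MP, so only 6-MP 1 lay below the controls, as was also so for the mean of the replication genes. Cdkn3, which encodes a phosphatase of cyclin-dependent kinases, read 9.53, 9.23 and 9.11 without and 10.05, 10.08 and 10.13 with 6-MP. Its treated arrays were close together and above every control, with a change of 0.80 (SE 0.18).

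Of the other genes that rose, Dnah8 encodes a motor protein of cilia and flagella. It read 6.60, 5.88 and 6.60 in the controls and 6.92, 7.81 and 7.66 with 6-MP. The groups were separate, with a change of 1.10 (SE 0.35), or 2.15-fold, and it was 0.93 without 6-MP 2 and 0.86 without control 2. Plac1, a gene of the placental trophoblast, read 7.57, 6.96 and 8.41 in the controls and 8.44, 9.46 and 8.20 with 6-MP. The controls spread over more than 1 log2 unit and overlapped the treated arrays, and the change of 1.05 (SE 0.41) was 0.67 without 6-MP 2, 0.71 without control 2 and 1.02, past the fold but not the p limit, without control 1. Tm4sf1, which encodes a small membrane protein of endothelial and tumour cells, had the lowest p of the 22206 clusters. It read 11.36, 11.35 and 11.14 in the controls and 12.02, 12.39 and 12.05 with 6-MP, a change of 0.87, or 1.83-fold (SE 0.17), under the limit on the fold. Sec14l2, which encodes a lipid-binding protein, differed by 0.39 (SE 0.16), and missed the p limit without 6-MP 1, 6-MP 2, control 1 or control 2, at changes of 0.37 or 0.38.

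Tgtp2, an interferon-induced GTPase gene of the cell-autonomous defence against parasites, was called only with both 6-MP 1 and control 3 in the fit. It read 6.34, 6.44 and 5.36 in the controls and 8.33, 6.52 and 6.66 with 6-MP. The highest value was that of 6-MP 1, the treated array in which interferon-stimulated genes were high, and the other 2 treated arrays exceeded the highest control by little. The change of 1.12 (SE 0.50) was 0.54 without 6-MP 1 and 0.78 without control 3. Of 11 measured guanylate-binding protein and immunity-related GTPase genes Tgtp2 was the only one past the p limit (median 0.20, but -0.43 without 6-MP 1, 0.57 without control 2 and 0.70 without 6-MP 3), and the mean of these 11 was 8.05, 8.62 and 7.43 in the controls and 9.42, 8.02 and 7.40 with 6-MP. Of 30 interferon-stimulated genes 0 passed, with a median of 0.10 that was -0.69 without 6-MP 1, -0.25 without control 3, 0.46 without control 2 and 0.55 without 6-MP 3.

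**Figure D3:**
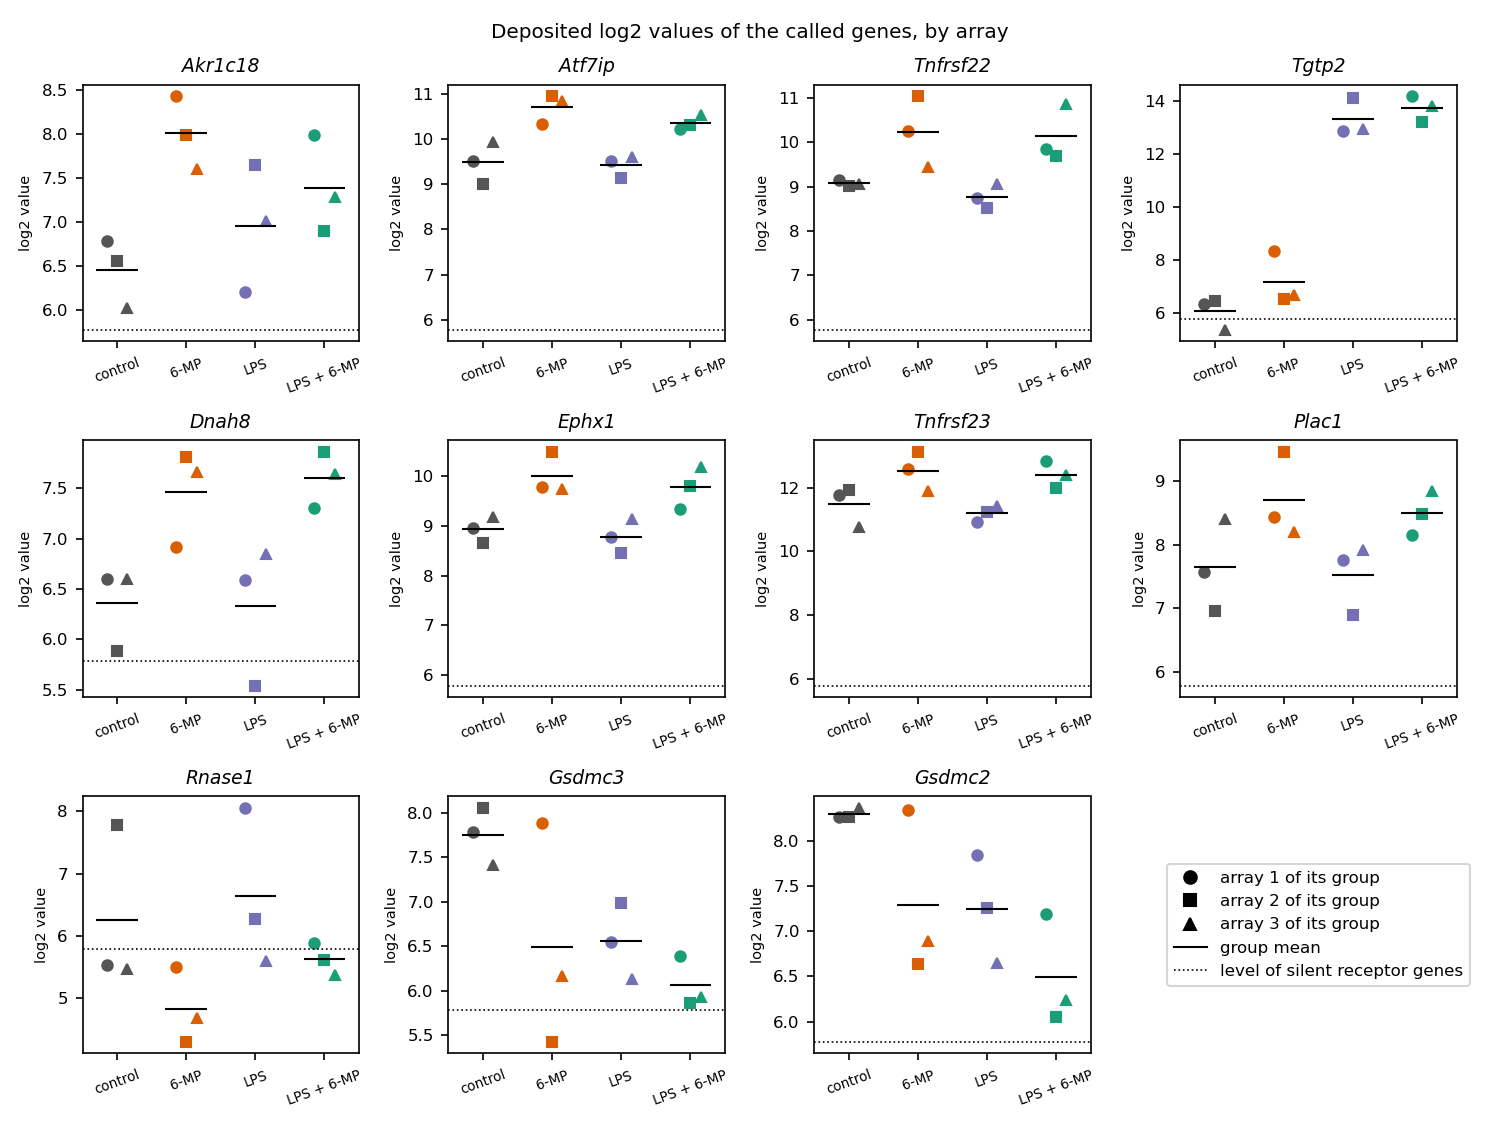
Log2 values (vertical axis) of the 11 called genes that are not receptor genes, 1 panel per gene, with a point for each control, 6-MP, LPS and LPS + 6-MP array, a line at each group mean and a dotted line at the dim level of 5.78. Akr1c18, Atf7ip, Ephx1, Tnfrsf22 and Dnah8 are separate between control and 6-MP, while Tnfrsf23, Plac1 and Gsdmc3 overlap.

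Among the genes that fell were 2 of the gasdermin C cluster on chromosome 15. Gasdermins form pores in the cell membrane, and in the mouse the C members are expressed in intestinal epithelium. Gsdmc3 read 7.78, 8.05 and 7.41 in the controls and 7.88, 5.43 and 6.17 with 6-MP. It was low in 6-MP 2 and 3 and at the control level in 6-MP 1, so the groups overlapped. The change was -1.25 (SE 0.48), or 2.38-fold lower. It was -1.95 without 6-MP 1, -0.72 without 6-MP 2, and past the fold but not the p limit without control 1 (-1.24), control 2 (-1.10) or 6-MP 3 (-1.09). Gsdmc2 was likewise low only in 6-MP 2 and 3, at 8.26, 8.26 and 8.36 in the controls and 8.34, 6.64 and 6.89 with 6-MP. Its change was -1.0 (SE 0.43), or 2.01-fold lower, and the call was lost without each array except 6-MP 1, with changes from -0.68 (without 6-MP 2) to -1.02 (without control 1). With the arrays centred on their medians the change was -0.99, and after quantile normalization -0.98, both under the limit on the fold.

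Gsdmc, the member for which the cluster is named, read 6.16, 6.19 and 7.57 in the controls and 6.43, 4.72 and 6.22 with 6-MP. The groups overlapped, and the change of -0.85 (95% interval -2.26 to 0.56) did not pass. Gsdmc4 differed by -0.22 (SE 0.27). Of 9 measured gasdermin genes Gsdmc2 and Gsdmc3 were lower at the p limit and 0 higher, with a median of -0.22. These genes are close copies of each other, and signal shared between their probes cannot be told apart. The mean over 23 genes of the intestinal epithelium was 12.09, 12.64 and 12.13 in the controls and 12.74, 12.01 and 11.89 with 6-MP, and so was also lower in 6-MP 2 and 3 than in 6-MP 1. The defining epithelial genes Epcam and Cdh1 were far above the dim level in the controls (14.87 and 15.80). The part of epithelial content in the gasdermin values was not tested.

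Rnase1, the gene of the pancreatic ribonuclease, was called lower. It read 5.53, 7.78 and 5.46 in the controls and 5.50, 4.30 and 4.68 with 6-MP. Only control 2 stood out, and the treated mean was dim, so that the change of -1.44 (SE 0.66) stands for at least 1.4-fold lower expression. Without control 2 the change was -0.67, without 6-MP 2 -1.17 and without 6-MP 3 -1.36, each short of a call. The mean of 16 genes of pancreatic acinar cells was 9.55, 10.84 and 10.61 in the controls and 9.94, 9.34 and 10.72 with 6-MP, and its part in the Rnase1 value was not tested.

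The last 3 genes called higher belong to the receptor genes that set the dim level, and all were dim in both groups. Olfr995, an olfactory receptor gene, read 3.98, 4.21 and 4.08 in the controls and 5.57, 4.55 and 5.52 with 6-MP, a change of 1.12 (SE 0.25). The bitter taste receptor gene Tas2r106 differed by 1.10 and the vomeronasal receptor gene Vmn1r61 by 1.02, each with 1 or more arrays without which it was not called. Olfr995 was at 0.94 without 6-MP 1 and 0.97 without 6-MP 3. Tas2r106 was at 0.83 without 6-MP 3, 0.87 without control 2 and 0.94 without control 3, and Vmn1r61 at 0.63 without 6-MP 2 and 0.98 without control 3. Over all 1452 receptor clusters 76 (5.23%) were past the p limit, and no fold is drawn from values at this level.

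The cytokine and chemokine genes that serve as readouts of inflammation, which 6-MP is given to restrain, did not pass in cultures without LPS. Tnf, the gene of tumour necrosis factor, read 5.91, 6.60 and 5.59 without and 6.53, 5.46 and 4.78 with 6-MP, a change of -0.44 (95% interval -1.52 to 0.64). Il6 read 7.08, 7.14 and 5.53 without and 7.94, 6.67 and 5.53 with 6-MP, a change of 0.13 (-1.15 to 1.41). Both spread as widely within the groups as between them. Without 6-MP 1 the changes were -0.91 and -0.48, short of the p limit, and without the 4 arrays that stood apart that of Tnf was -0.63, past the p limit but not the fold. The neutrophil chemokine genes Cxcl1, Cxcl2 and Cxcl5 differed by 0.04 (-0.86 to 0.93), -0.10 (-1.45 to 1.25) and 0.31 (-0.98 to 1.59). Cxcl9, a chemokine gene induced by interferon, was dim in both groups and differed by 0.26 (-0.85 to 1.37). The T cell chemokine gene Cxcl10 read 8.27, 9.08 and 8.14 without and 9.89, 9.57 and 7.18 with 6-MP. One treated array lay below all controls, and the change of 0.39 (-0.8 to 1.58) was 1.24, past the p limit, without 6-MP 3. Of 18 cytokine genes 0 passed (median 0.03), and likewise of 18 genes of the NF-kB pathway (median -0.05) and of 18 immediate early genes (median -0.02).

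Ccl12 and Ccl7, genes of chemokines that attract monocytes, were lower at the p limit. Ccl12 read 8.39, 7.44 and 7.96 in the controls and 7.18, 7.27 and 6.42 with 6-MP. Every treated array was below every control, with a change of -0.97 (SE 0.37) that was short of the limit on the fold. It missed the p limit without control 1 (-0.74) or 6-MP 3 (-0.70). Ccl7 read 9.18, 9.81 and 8.57 without and 8.61, 8.35 and 7.98 with 6-MP, a change of -0.88 (SE 0.35) that missed the p limit without control 1 (-0.88), control 2 (-0.56) or 6-MP 3 (-0.71). Of 20 CC chemokine and receptor genes these 2 were lower at the p limit and 0 higher (median -0.10). Of 15 CXC chemokine and receptor genes Pf4, made by platelets and macrophages, was lower (change -0.80, SE 0.36) and 0 higher (median -0.03). The Pf4 change missed the p limit without control 1 (-0.66), control 2 (-0.61) or 6-MP 3 (-0.50), and with centred arrays (-0.78). The mean over 15 macrophage genes was 10.57, 9.82 and 9.80 in the controls and 9.56, 10.08 and 9.70 with 6-MP. Of these genes 13 had a change below 0 and 0 passed (median -0.29, but 0.06 without control 1), with C1qa at -0.67 (SE 0.40) and the growth factor receptor gene Csf1r at -0.56 (SE 0.34). The part of macrophage content in the chemokine values was not tested.

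The NR4A receptor genes, whose proteins are known targets of the drug, did not pass with all arrays. Nr4a1 differed by -0.07 (95% interval -0.57 to 0.44), Nr4a2 by -0.44 (-1.19 to 0.31) and Nr4a3 by -0.36 (-0.91 to 0.18), and the median of the 3 was -0.36. The Nr4a2 change was -0.76, past the p limit but not the fold, without 6-MP 3, -0.21 without 6-MP 1 and -0.09 without the 4 arrays that stood apart. Genes that handle 6-MP were expressed but did not pass. Hprt read 14.44, 14.24 and 14.11 without and 14.57, 14.25 and 14.21 with 6-MP, a change of 0.08 (-0.42 to 0.58), and Tpmt and Xdh differed by 0.13 (-0.6 to 0.85) and 0.19 (-0.76 to 1.15). Of 15 genes of thiopurine activation and breakdown 0 passed (median -0.02), nor did any of 9 transporter genes (median -0.06) or of 14 genes of de novo purine synthesis (median -0.10, 11 below 0).

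Of 9 genes of Rac and its Vav activators, Rac3, which encodes a Rac protein of neurons, was lower at the p limit. It read 8.33 in each of the 3 controls and 7.97, 7.5 and 6.95 with 6-MP. All treated arrays lay below the controls, and the change of -0.86 (SE 0.26), short of the limit on the fold, kept its side of the p limit without each single array. The median of the 9 genes was -0.28. Of 22 genes of ribosome assembly, Nop58, a core protein of the particles that methylate ribosomal RNA, was lower (-0.33, SE 0.15) and 0 higher (median -0.08), but it missed the p limit without each single array, at changes of -0.27 to -0.37, and with centred arrays (-0.31). None of 18 genes of PI3K signalling (median -0.06), 21 targets of ATF4 (-0.20, 20 below 0), 20 of glycolysis (-0.08, 19 below 0, and from -0.42 to 0.15 without 1 array), 15 of the unfolded protein response (-0.10) or 13 of cholesterol synthesis (0.06) passed. The 11 reference genes had a median of 0.

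**Figure D4:**
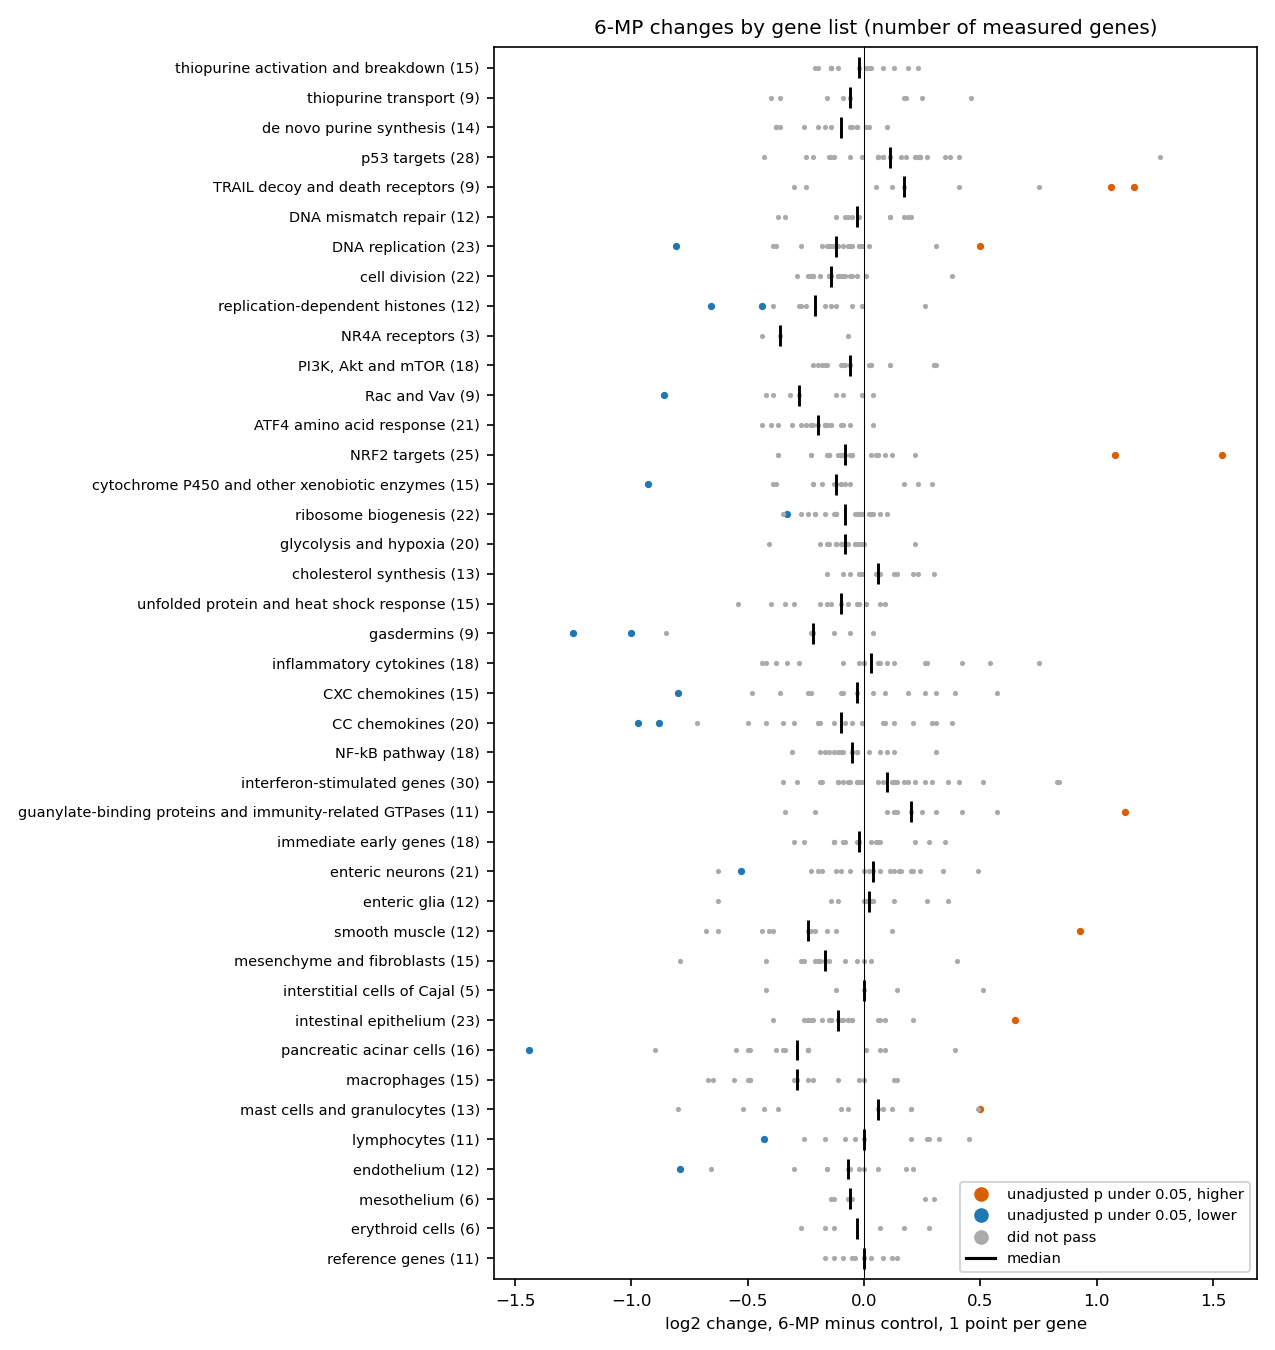
Log2 change (6-MP minus control, horizontal axis) of each measured gene of the lists, 1 row per list with its number of genes, a black mark at the median and colour for genes at an unadjusted p under 0.05. Each list holds 0 to 2 such genes, and the medians lie from -0.36 (NR4A receptors) to 0.20 (guanylate-binding proteins and immunity-related GTPases).

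By cell type, few markers passed. Among 21 neuronal genes Nefm, a neurofilament gene, was lower (-0.53, SE 0.24) and 0 were higher, with a median of 0.04 (-0.23 without 6-MP 1). The Nefm result missed the p limit in each fit without 1 of the 6 arrays except 6-MP 1. The neuropeptide gene Vip read 9.09, 9.07 and 8.79 in the controls and 8.78, 7.89 and 8.38 with 6-MP. Its groups were just separate and its change was -0.63 (SE 0.29). None of 12 glial genes passed (median 0.02), and Fabp7 differed by -0.63 (SE 0.38). Of 23 epithelial genes Lgr5, the marker of intestinal stem cells, was higher at the p limit, at 7.10, 6.79 and 6.57 without and 7.47, 7.22 and 7.73 with 6-MP (change 0.65, SE 0.21), and 0 were lower (median -0.11, and from -0.39 without 6-MP 1 to 0.10 without 6-MP 3). Of 12 endothelial genes Cdh5, which encodes the cadherin of endothelial junctions, was lower (-0.79, SE 0.30; median of the list -0.07), but not past the p limit without 6-MP 1 (-0.60), 6-MP 2 (-0.74) or control 2 (-0.52). Of 12 smooth muscle genes only Pln was higher at the p limit, and it was dim in both groups, with a change of 0.93 that was short of the p limit without 6-MP 2 (0.67) or 6-MP 3 (0.71). The median of the list, -0.24, was 0.29 without 6-MP 1, 0.03 without control 1, -0.77 without 6-MP 2 and -0.76 without control 2. Of 13 mast cell and granulocyte genes only Cma1, a protease gene that was dim in both groups, passed (0.50, median of the list 0.06), and it missed the p limit without 6-MP 1, 6-MP 3, control 1 or control 3, at 0.42 to 0.48. Of 11 lymphocyte genes only the T cell receptor partner gene Cd4 was lower (-0.43, SE 0.19, median of the list 0), and it missed the p limit without 6-MP 1, 6-MP 2, control 2 or control 3, at -0.44 to -0.26. Of 16 acinar genes only Rnase1 passed (median -0.29, and from -0.74 without control 1 to 0.07 without 6-MP 2). Genes of mesenchyme (15), interstitial cells of Cajal (5), mesothelium (6) and erythroid cells (6) had 0 past the limit, with medians of -0.17, 0, -0.06 and -0.03, as had 3 sex-linked genes (-0.11, and from -0.66 to 0.45 without 1 array).

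The arrays with LPS show the same drug in cultures that also had LPS. Deviations from the group mean correlated across LPS states, as for 6-MP 1 with LPS 2 (0.59) and with LPS + 6-MP 1 (0.60). The labels do not say whether both states came from the same gut preparations, so the LPS arrays are not taken as independent material. LPS + 6-MP and LPS differed at an unadjusted p under 0.05 in 490 clusters that were higher with 6-MP (2.21%) and 310 that were lower (1.4%), and 0 passed after adjustment with limma. Of the 14 clusters, 13 changed in the same direction there, where 50.7% of all clusters were above 0, and 6 of them had a p under 0.05. In 6 the LPS arrays with and without 6-MP did not overlap, in the direction of the call. Over all clusters 8.29% did not overlap, counted in either direction. Atf7ip read 9.52, 9.14 and 9.60 with LPS and 10.23, 10.31 and 10.54 with LPS + 6-MP. These groups were separate, as without LPS, and the change was 0.94 (SE 0.25). Ephx1 read 8.77, 8.45 and 9.14 against 9.34, 9.80 and 10.20, again separate, with a change of 0.99 (SE 0.28). Tnfrsf22 read 8.74, 8.53 and 9.06 against 9.86, 9.69 and 10.87, and its change was 1.37 (SE 0.37). Tnfrsf23 was at 10.91, 11.23 and 11.44 against 12.83, 11.99 and 12.40, and here the groups did not overlap (1.21, SE 0.36). Dnah8 differed by 1.28 (SE 0.35) and Plac1 by 0.98 (SE 0.41).

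The remaining called genes did not pass with LPS. Akr1c18 read 6.21, 7.65 and 7.01 with LPS and 7.99, 6.90 and 7.29 with LPS + 6-MP, which overlapped. Its change there was 0.44 (SE 0.38), and the difference of the changes with and without LPS was -1.11 (SE 0.54), which did not pass. With 2 residual components as covariates, chosen after seeing the data, it was past the p limit. Gsdmc3 read 6.55, 6.99 and 6.13 against 6.39, 5.86 and 5.93, a change of -0.50 (SE 0.48), and Gsdmc2 differed by -0.75 (SE 0.43), Gsdmc by -1.17 and Rnase1 by -1.02 (SE 0.66). Tgtp2 was far higher in all cultures with LPS, at 12.88, 14.12 and 12.96 against 14.19, 13.23 and 13.83 (0.43, SE 0.50). Some genes short of a call without LPS were past the p limit with it, or further past it, among them Nr4a3 (-1.0, SE 0.25), Fabp7 (-0.99, SE 0.38), Vip (-0.98, SE 0.29), Ccl12 (-1.09, SE 0.37), H1f1 (-1.23, SE 0.22) and H1f3 (-0.65, SE 0.19). The interaction did not pass for any of these 6, with differences from -0.64 (SE 0.36) for Nr4a3 to -0.11 (SE 0.52) for Ccl12, but with 2 residual components it was past the p limit for H1f1. Of the 12 histone genes 5 were lower at the p limit with LPS and 0 higher, with a median of -0.39. The tests of the difference passed an unadjusted p under 0.05 in 434 clusters (1.95%), 1 of them among the 14 (Olfr995), and 0 after adjustment with limma.

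**Figure D5:**
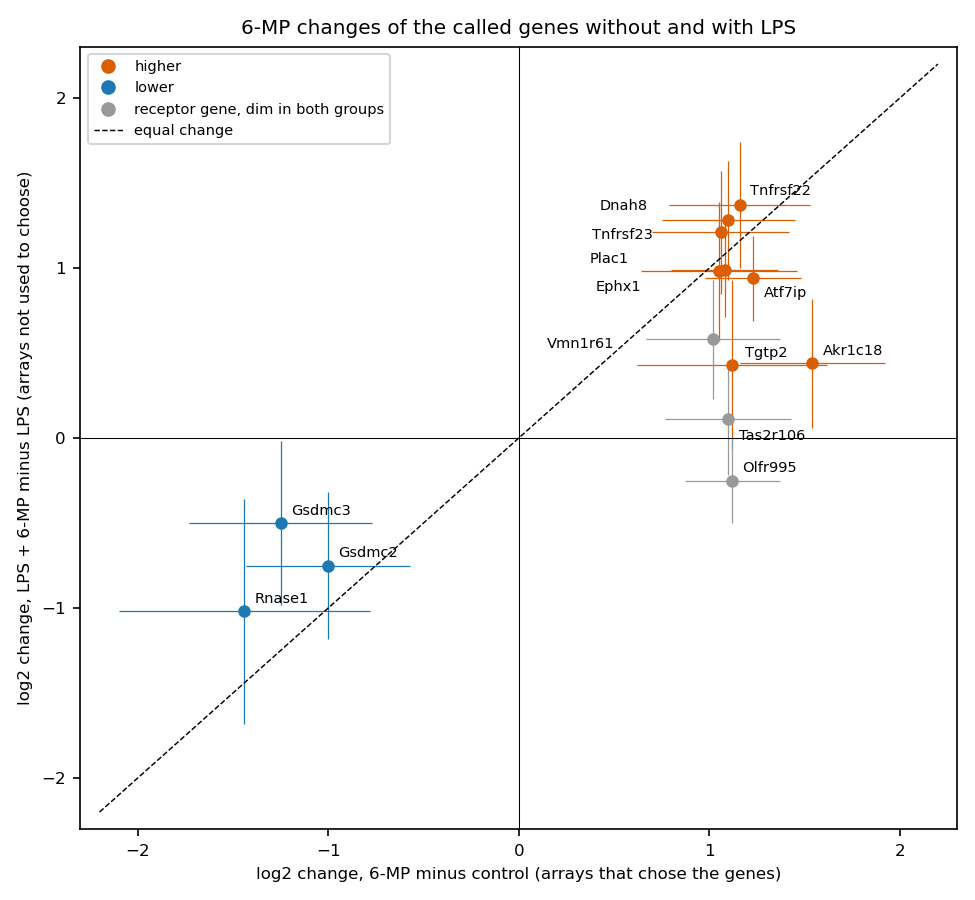
Log2 change with 6-MP in cultures without LPS (horizontal axis) and with LPS (vertical axis) for the 14 called clusters, with bars of 1 SE in each direction and a dashed line where both changes are equal. Of the 14 clusters 13 have the same sign on both axes, and Olfr995 does not.

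Averaged over cultures with and without LPS, 6 arrays with 6-MP against 6 without, 847 clusters had an unadjusted p under 0.05 and 0 an adjusted one with limma, the lowest adjusted p being 0.386. With 1 residual component as covariate 2 clusters passed after adjustment, Atf7ip and Dnah8. With 2 components, a fit chosen after seeing the data, 17 did. The components were taken from the residuals of the same fit. They leave the changes as they were and only take up error, so these adjusted p-values can be too small. Eda2r was among the 17, with an adjusted limma p of 0.0125. The 10 named clusters with the lowest p in this comparison were Trim24 (mean change 0.68, SE 0.11), Atf7ip (1.09, SE 0.18), H1f1 (-0.95, SE 0.16), Cdkn3 (0.71, SE 0.12), Tm4sf1 (0.67, SE 0.12), Ephx1 (1.03, SE 0.20), Olfr826 (0.61), Sec14l2 (0.55, SE 0.11), Dnah8 (1.19, SE 0.25) and Olfr1228 (0.67). H1f1 was the only one of them that was lower with 6-MP. It read 11.44, 11.45 and 11.20 with LPS and 10.02, 10.57 and 9.81 with LPS + 6-MP, so that all 6 treated arrays lay below the untreated ones of their LPS state.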

How the data were processed

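Total RNA of 12 ENS cultures, 100 ng per array, was hybridised to Clariom S mouse arrays. Using the Transcriptome Analysis Console, the authors made and deposited log2 values per transcript cluster. Normalization, summarisation and genome build are not given in the sources used here, and without scanner files background could be read only from the deposited log2 values. Another summarisation could change the values of dim genes and of close copies most. The number of arrays and the signal over background limit the precision.

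Of 28846 entries, 6640 controls were left out and 22206 clusters tested without a filter. The platform's table named 19572 clusters and the study's supplement named 40 more, while 2594 had no name here. For 56 symbols with several clusters the one with the highest mean was taken. The functions lmFit, contrasts.fit and eBayes of limma (version 3.58.1, R 4.3.3) fitted 4 group means, leaving 8 residual degrees of freedom beside 4.25 from the prior. Groups came from the labels' treatment. Contrasts were 6-MP minus control, LPS + 6-MP minus LPS, their mean and their difference. Clusters were called at a fold of 2 or more with an unadjusted p below 0.05, as in the study's methods, and Benjamini-Hochberg adjustment ran over all clusters. For a called gene with 1 group mean under 5.78 the fold is also given with that mean raised to 5.78. The rule for named genes took up to 15 called clusters per direction, the 10 with the lowest p in the mean of both contrasts, the genes the paper names for 6-MP, up to 4 genes with the lowest p per list, well-known genes and markers. The comparison and the 42 gene lists were chosen with earlier results of these data known.

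Alternatives were the replicate numbers as a block, median centring, quantile normalization and an intensity trend. Dim clusters, single arrays or the 4 arrays apart were left out in others. The rest were 1 residual component as covariate, only the 6 arrays compared, a fold of 1.5 and a t-test. A fit with 2 residual components and a fit to raised dim values were chosen later, after seeing the data. The fit was tested on simulated data. Promoters are RefSeq's, on GRCm38.p6. Protein and PCR measurements were not analysed here.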

Additional observations from a re-analysis of the deposited data

Results flagged for a closer look

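The tests of the difference between the 6-MP change with and without LPS passed an unadjusted p under 0.05, by limma, for 5 of the genes named by the rule, and all 5 had an adjusted p = 1. Over all clusters 434 (1.95%) passed unadjusted. The olfactory receptor gene Olfr995 differed by -1.37 between both changes, which were 1.12 without LPS and -0.25 with it. The olfactory receptor gene Olfr1228 differed by 0.66, with changes of 0.34 and 1.0. Ahrr, the gene of the repressor of the aryl hydrocarbon receptor, differed by 0.62 (SE 0.27). Its log2 value was 6.08, 6.46 and 5.88 in the controls and 5.85, 5.72 and 5.71 with 6-MP, a change of -0.38, and the change with LPS was 0.24. The cytochrome P450 gene Cyp2b10, dim in control and 6-MP arrays, differed by 1.09 (SE 0.45), with changes of -0.39 and 0.69. The phospholamban gene Pln, whose product restrains the calcium pump of muscle, was also dim in both groups and differed by -1.05, with changes of 0.93 and -0.12.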

How the results depend on the processing

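Of the single genes tested under each alternative, 827 values kept their side of the threshold, 27 of them with a turn of sign in a gene that had not passed. Another 114 fell short of a threshold they had passed, and none changed sign while called. From short of the p limit, 1 gained a call (Cxcl10 without 6-MP 3). Genes past the p limit alone that also passed the fold in an alternative count as having kept their side. Without 6-MP 1, for example, Rac3, Pln, Ccl7, Ccl12 and Cyp2c39 were called. Of the list medians, 607 moved by less than the SD of the list's mean over the control arrays and 23 by more, and 66 of the 630 turned sign. The count of higher clusters was 17 to 25 and that of lower clusters 7 to 20 when single arrays were left out. These counts were 33 and 12 without the 4 arrays that stood apart, and 113 and 84 at a fold of 1.5. They were 6 and 0 with dim values raised, and 5 and 0 with the t-test. Adjusted calls appeared for the mean effect with dim values raised (1, Trim24) and with residual components as covariates, where 2 components gave 1 cluster without LPS (Akr1c18, adjusted p = 0.0382) and 17 for the mean effect, and 1 component gave 2 for the mean effect (Atf7ip and Dnah8). Called clusters with the same direction with LPS numbered 21 to 35 when single arrays were left out and 35 without the 4 arrays. Called clusters with an interaction numbered 2 with quantile normalization or an intensity trend, 0 without dim clusters, 4 to 11 when single arrays were left out, 19 without the 4 arrays and 3 with 1 or 2 components. Where a setting called more clusters, the cause was not tested. The replicate numbers of the labels did not pair the arrays. In 8 of 36 cases the closest array of another group had the same number. Of 3 same-number pairs of control and 6-MP, 1 correlated over 0.1. Deviations from the group mean correlated at 0.42 for control 1 with 6-MP 2 and at 0.52 for control 2 with 6-MP 1. For control 3 with 6-MP 3 the value was 0.39, and for the other pairs of these groups it was -0.36 to -0.02. Whether such arrays came from the same experiment was not tested. The main fit treats all arrays as unpaired, so variation between experiments stays in its errors. With the replicate numbers as a block, 11 clusters were higher and 3 lower, the same 14, while Cd4, Nefm, Nop58, Pf4, Rfc4 and Sec14l2 missed the p limit.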

Other observations

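Map3k7cl, chosen after its values were seen, read 11.23, 9.73 and 9.73 in the controls and 11.39, 12.49 and 10.71 with 6-MP, a change of 1.30 that did not pass. In Eda2r, too, control 1 was the highest control, and without it both genes were called. The highest treated array in both genes was 6-MP 2. Over all clusters its deviations from the group mean correlated with those of control 1 at 0.42. The mean of 3 sex-linked genes was 10.89, 10.34 and 9.04 in the controls and 10.31, 10.72 and 8.66 with 6-MP, so that array 3 was the lowest in both groups of mixed embryos.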
